A study of Mus musculus with 15 samples.

Results

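The Wdfy genes Wdfy1, Wdfy2 and Wdfy3 encode endosomal and autophagic adaptor proteins that combine WD40 repeats with a FYVE domain. These are 3 of the 18194 genes that the array annotation names alone on a probe set, and they were represented by every probe set annotated with exactly 1 of these symbols. That rule found 11 of the 45101 probe sets on the array, 5 for Wdfy1, 1 for Wdfy2 and 5 for Wdfy3, and all 11 passed the filter on low signals. The genes were picked with the genotype comparison in view, because Wdfy1 stood out in it. The genotype values of the 11 probe sets are therefore given as a description, without p-values. Whether they passed the test run over the whole array is stated as part of that description.

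The samples were 15 whole hearts of male mice, each 10 weeks old, whose total RNA was hybridised to Affymetrix expression arrays in 1 colour, with each mouse on its own array. The control group held 8 mice, which the labels call control without naming a strain, litter or genotype. The other group held 7 mice heterozygous for Lmna H222P, a substitution in the gene of the nuclear lamina proteins lamin A and lamin C first described in people with muscular dystrophy and a failing heart. The question was which heart transcripts differ between these genotypes.

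FYVE domains bind phosphatidylinositol 3-phosphate (PI3P), the lipid that marks early endosomes and forming autophagosomes, and WD40 repeats fold into a propeller that docks partner proteins. Wdfy1, also called FENS-1, sits on early endosomes and is known to bring the adaptor TRIF to the innate immune receptors TLR3 and TLR4. Wdfy2, also called ProF, binds the kinase Akt on a class of endosomes and takes part in insulin signalling in fat cells. Wdfy3, also called ALFY, is a very large protein that also has a BEACH domain and links protein aggregates bound by p62 to the autophagy machinery.

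Array signals are in arbitrary units, and the median probe set of an array had between 56.7 and 94.2 units. The Spearman correlation between arrays across tested probe sets ranged from 0.806 to 0.906. Of 38870 probe sets tested with limma, 98 had a Benjamini-Hochberg adjusted p under 0.05 (0.252%), which is called passing from here on, with 35 higher (0.0900%) and 63 lower (0.162%) in heterozygous hearts. This split depends on the scaling: 51 were higher and 14 lower with arrays centred on their medians, and 37 and 28 after quantile normalization. Taking for each of 16627 genes the probe set with the highest mean, 0.289% passed, 0.102% upward and 0.186% downward. Ventricular muscle markers, which check the labelled tissue, were bright: all 10 had a median over arrays of at least 7637.6 units, and 0 of the 10 passed or had an unadjusted p under 0.05. Differences are given throughout as heterozygous minus control means of log2 signals, and on that scale all tested probe sets together had a median of -0.11.

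Wdfy1 was brighter in heterozygous hearts in 4 of its 5 probe sets, and in 3 of them every heterozygous array exceeded every control array. Probe set 1437358_at had the widest gap. Its control signals ran from 45.1 to 99.8 units with a median of 78.05, and its heterozygous signals from 234.1 to 497.4 units with a median of 349.5. The lowest heterozygous heart was therefore 2.35 times as bright as the highest control heart. Control hearts averaged 6.21 ± 0.46 (SD, n = 8) on the log2 scale and heterozygous hearts 8.43 ± 0.39 (SD, n = 7), a difference of 2.22 with a limma standard error of 0.23, or 4.65-fold.

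Probe set 1435588_at, the one with the highest mean for Wdfy1, showed the same separation. Control signals ran from 41.5 to 120.4 units with a median of 80.25. Heterozygous signals ran from 251.9 to 597 units with a median of 343.7. The lowest heterozygous heart was 2.09 times as bright as the highest control heart, and the difference in means was 2.23 with a standard error of 0.27. In both of these probe sets 4 of the 8 control arrays lay under the median of their own array, and 0 of the 7 heterozygous arrays did.

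Probe set 1424749_at also separated the groups, with almost no gap. Its control signals ran from 15.6 to 156.4 units with a median of 79.35, and its heterozygous signals from 158.8 to 373.3 units with a median of 276.2. The lowest heterozygous heart was 1.02 times as bright as the highest control heart. Its difference of 1.79 had a standard error of 0.40, and it fell to 1.47 without control mouse 4, the array at 15.6 units.

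The remaining Wdfy1 probe sets were weak. Probe set 1453426_a_at ran from 6.7 to 68.3 units in control and from 24.7 to 108.3 units in heterozygous hearts, with medians of 18.35 and 44.5. All 7 heterozygous arrays exceeded the control median but only 2 exceeded the highest control, and the difference was 1.35 with a standard error of 0.45. Its signal lay under the array median on 13 of the 15 arrays. When a floor was set at a log2 of 6, its difference was 0.13. Probe set 1447543_at had its difference on the other side of 0. It ran from 4.4 to 75.2 units in control and from 3.9 to 96.2 units in heterozygous hearts, with medians of 29.6 and 17, and its difference was -0.54 with a standard error of 0.74. That difference was 0.05 with the same floor and ran from -0.96 (without heterozygous mouse 5) to -0.19 (without heterozygous mouse 4) when 1 array was left out, so no direction can be given for it. It too lay under the array median on 13 of the 15 arrays.

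**Figure D1:**
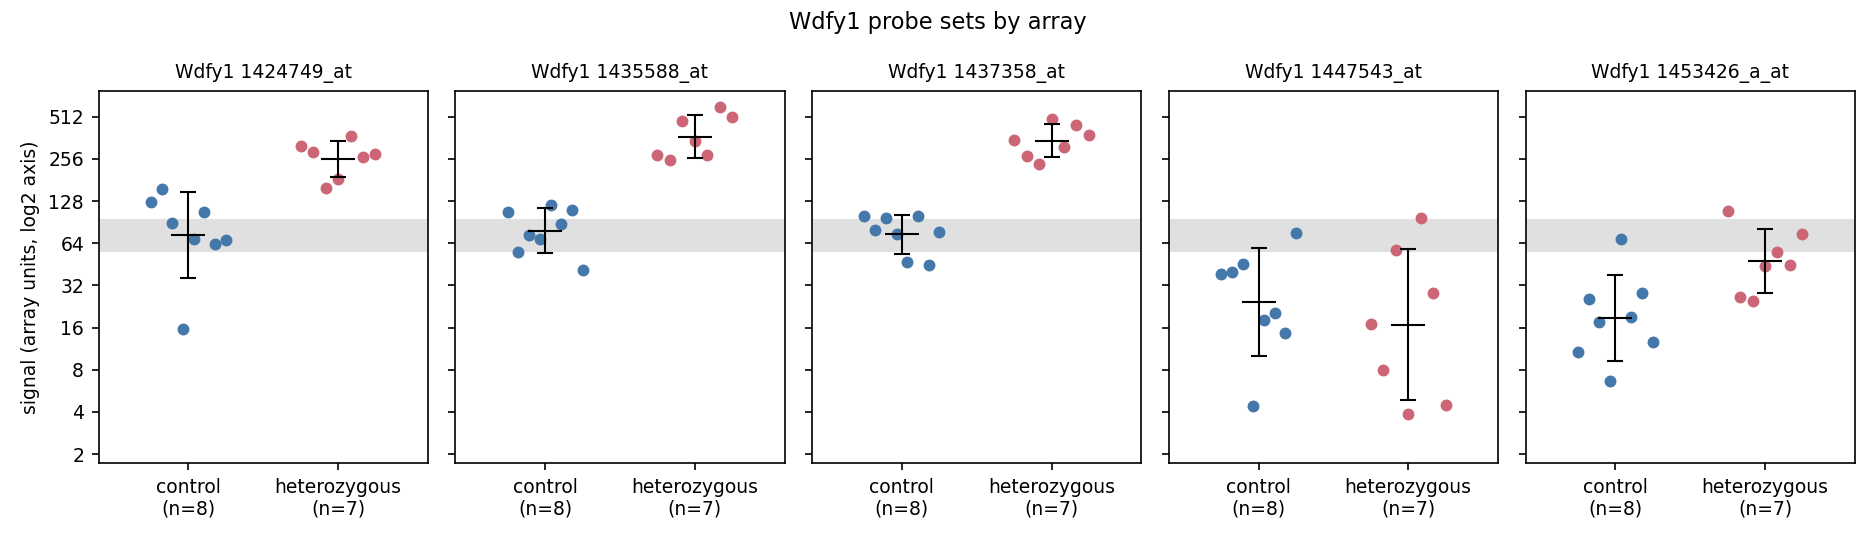
Signal of the 5 Wdfy1 probe sets on each array, in array units on a log2 axis, for 8 control and 7 heterozygous hearts. Points are single mice, the bar is the geometric mean with 1 SD of the log2 signals on each side, and the grey band spans the 15 array medians (56.7 to 94.2 units). The groups are fully apart in 1424749_at, 1435588_at and 1437358_at and overlap in 1447543_at and 1453426_a_at.

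Of the 11 Wdfy probe sets, 2 passed limma's adjusted threshold, both of Wdfy1 and both higher in heterozygous hearts (1435588_at and 1437358_at), where 0.252% of all tested probe sets passed in either direction and 0.0900% passed upward. The groups did not overlap in 3 of the 11, where 0.468% of all tested probe sets had no overlap in either direction and 0.188% had none with the heterozygous group higher. These counts describe how the genes came to be chosen, since Wdfy1 was picked on this contrast.

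Mouse-to-mouse variation was not shared between the 2 Wdfy1 probe sets that passed. After the group means were subtracted, the log2 signals of 1435588_at and 1437358_at had a Pearson correlation of -0.11 over the 15 arrays, which share labelling and scaling. Over the 10 pairs of Wdfy1 probe sets the within-group correlation ranged from -0.24 to 0.49 with a median of -0.03. The highest were those of 1424749_at with 1447543_at (0.49) and with 1453426_a_at (0.43). Control mouse 4 was the lowest control in each of these probe sets. The brightest heterozygous heart was mouse 6 in 1435588_at, at 597 units, mouse 4 in 1437358_at, at 497.4 units, and mouse 5 in 1424749_at, at 373.3 units. The order of mice within a group therefore differed between these 3 probe sets. That the groups kept their order in them follows from their choice as the probe sets without overlap, and 1447543_at lay at -0.54.

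Wdfy2, with its single probe set 1434517_at, was measured above the array median on all 15 arrays and its groups overlapped broadly. Control signals ran from 187.5 to 433.6 units with a median of 237.6, and heterozygous signals from 168.4 to 295.8 units with a median of 245.3. Mean log2 signals were 7.99 ± 0.44 (SD, n = 8) and 7.84 ± 0.28 (SD, n = 7), a difference of -0.15 with a standard error of 0.20. The direction turned with the scaling, to 0.06 when each array was centred on its median, so no direction can be given for Wdfy2.

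Wdfy3 was measured by 5 probe sets, of which 3 had a difference above 0, and the groups overlapped in every one. No direction can be given for the gene. Probe set 1428517_at, the one with the highest mean for this gene, had the smallest spread of the 11 Wdfy probe sets. Its control signals ran from 426.1 to 618.6 units with a median of 509.95, and its heterozygous signals from 449.7 to 704.1 units with a median of 516.7. The difference was 0.05 with a standard error of 0.14, around means of 9.01 ± 0.17 (SD, n = 8) and 9.06 ± 0.23 (SD, n = 7). It was 0.26 after centring on the median and -0.014 without heterozygous mouse 4, so its sign turned with 1 array. Its residual SD of 0.20 (log2) was at percentile 3.66 of all tested probe sets.

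The other 4 Wdfy3 probe sets were dimmer and more variable. Probe set 1447433_at had the largest difference of the 5, 1.20 with a standard error of 0.49, which was 0.14 with the floor at a log2 of 6. Its control signals ran from 10.3 to 117.7 units with a median of 30.65, and its heterozygous signals from 41.5 to 93.8 units with a median of 89.1. All 7 heterozygous arrays exceeded the control median but 0 exceeded the highest control, mouse 1 at 117.7 units. Probe set 1458952_at lay the other way, at -0.59 with a standard error of 0.35, with signals from 47.1 to 175.5 units in control and from 28.6 to 132.2 units in heterozygous hearts. Probe set 1427456_at differed by -0.37 with a standard error of 0.38, and 1446109_at by 0.35 with a standard error of 0.58. Leaving out 1 array moved the former between -0.60 (without control mouse 2) and -0.19 (without heterozygous mouse 3), and the latter between 0.077 (without heterozygous mouse 1) and 0.63 (without heterozygous mouse 3). Probe set 1446109_at lay under the array median on 14 of the 15 arrays. Within groups, the 10 pairs of Wdfy3 probe sets had correlations from -0.60 to 0.34 with a median of -0.04.

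**Figure D2:**
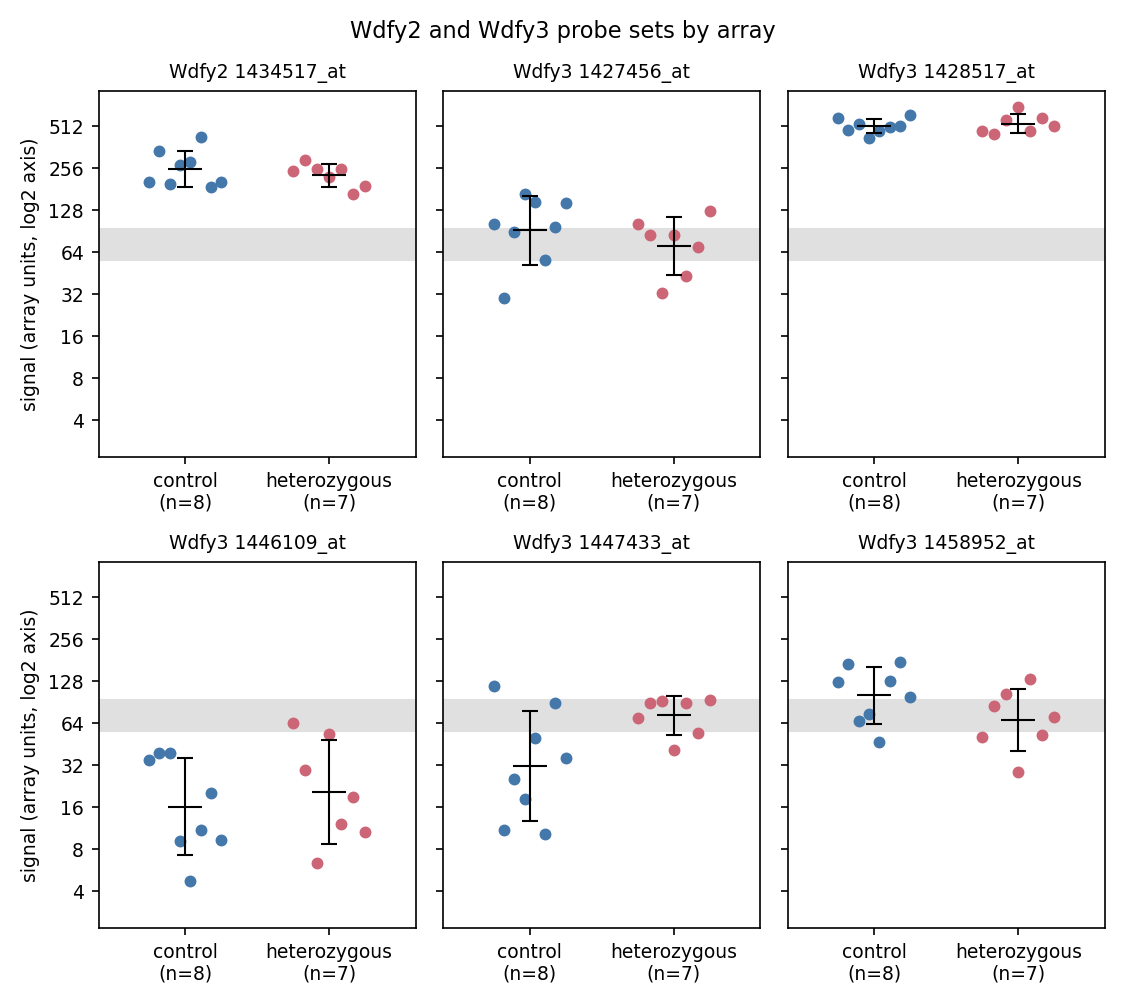
Signal of the Wdfy2 probe set and the 5 Wdfy3 probe sets on each array, in array units on a log2 axis, with points, bars and grey band as for Wdfy1 (geometric mean with 1 SD of log2 signals, n = 8 and n = 7, array medians from 56.7 to 94.2 units). The groups overlap in all 6 panels, and 1428517_at has the narrowest spread.

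The differences depend in part on how the arrays are scaled. Centring each array on its median moved the median of all tested probe sets from -0.11 to 0.10, and quantile normalization moved it to -0.02. The difference of 1437358_at was 2.42 after centring and 2.30 after quantile normalization, and that of 1435588_at was 2.44 and 2.31. The 3 Wdfy1 probe sets without overlap remained without overlap under both of these scalings. For 1424749_at the gap between the lowest heterozygous and the highest control heart was 0.02 on the deposited scale, 0.25 after centring and 0.22 after quantile normalization.

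**Figure D3:**
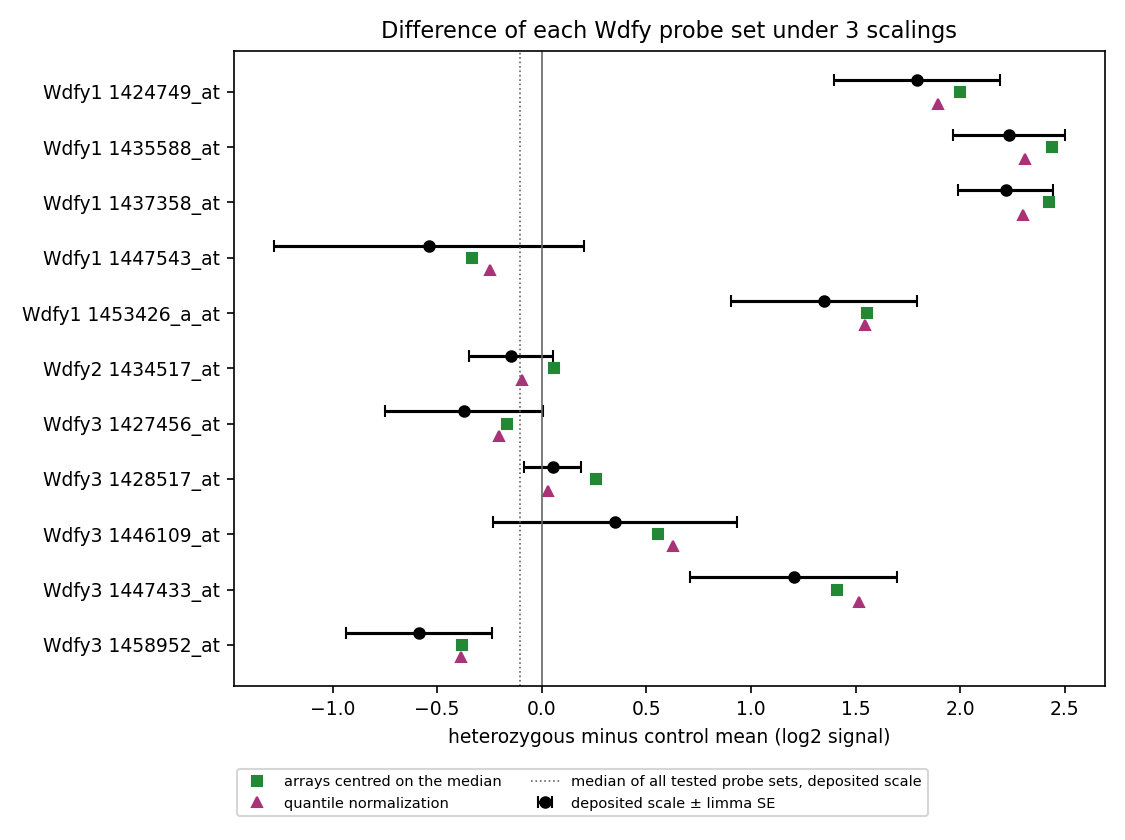
Difference between heterozygous and control mean log2 signal of the 11 Wdfy probe sets on the deposited scale (black, with the limma standard error), after centring each array on its median (green) and after quantile normalization (purple). The 3 Wdfy1 probe sets whose groups do not overlap lie between 1.79 and 2.44 in all 3 scalings, and the Wdfy2 probe set lies on either side of 0.

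The hearts also differed in markers of other cell types, and these differences moved with the genotype beside Wdfy1. Of 9 atrial muscle markers, 3 rose (Sln, Myl7 and Myl4) and 0 fell, where 0.102% of all genes passed upward and 0.186% downward. Kcna5 and Bmp10 had differences of -0.62 and -0.81 that did not pass. Sln and Myl4 rose in their brightest probe set only, and their other tested probe sets, at -0.94 and -0.07, did not pass. The summed signal of the 9 ran from 7310.4 to 11798.5 units in control and from 11303.2 to 42439.8 units in heterozygous hearts. It is weighted towards Nppa, which went from a geometric mean of 6947 to 12713 units and did not pass. Of 7 erythroid and platelet markers, 2 fell (Alas2 and Ppbp) and Slc4a1 passed in a probe set other than its brightest. The summed signal ran from 3558.5 to 4463.6 units and from 1813.1 to 3419.3 units, without overlap. It is weighted towards Alas2 and Pf4, at control geometric means of 1375 and 1384 units, of which Pf4 did not pass. Of 7 fibroblast markers 0 passed, while 4 were higher and 0 lower at an unadjusted p under 0.05. In either direction 15.2% of all genes lay under that p. The sum of the 7 did not overlap either, at 12941.1 to 17415.4 units against 18394.2 to 29994.4 units. That sum is weighted towards Dcn, the brightest of the 7, which went from a geometric mean of 6487 to 11941 units. The tested probe sets of Dcn ran from -0.47 to 0.88. In the probe set with the highest mean, differences of the 7 genes were all above 0, from 0.08 to 0.88. Col1a1, Pdgfra and Tcf21, like Dcn, also had tested probe sets below 0, down to -0.52, -0.38 and -0.49. Of 4 smooth muscle markers 0 passed, with sums of 3941.8 to 5695.3 units and 5614.5 to 11198.3 units. All 4 were higher at an unadjusted p under 0.05, but the tested probe sets of Acta2 ran from -1.55 to 0.95. In whole-heart RNA, a different share of cells of a type and a different amount of RNA per cell cannot be told apart. No marker was listed at 0. Among the atrial markers, Sln at a control geometric mean of 10.2 units and Bmp10 at 27.9 units lay under the lowest array median. Of the adipocyte markers, Plin1, Lep and Cfd were not tested.

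The part of the atrial, blood cell, fibroblast and smooth muscle markers in the Wdfy1 difference was not tested. Sums of macrophage, dendritic and B cell, endothelial and adipocyte markers overlapped between the groups, and 0 genes of these 4 lists passed. Macrophage sums ran from 6002 to 8384.7 units in control and from 5168.3 to 12031.8 units in heterozygous hearts. Dendritic and B cell sums ran from 1660.4 to 2135.6 units and from 978.3 to 4385.8 units, endothelial sums from 3873.2 to 4775.9 units and from 3716.4 to 7087.4 units, and adipocyte sums, of 2 genes, from 11667.7 to 17986.7 units and from 10312.5 to 24322.6 units.

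The position of the genes was independent of their choice. In RefSeq assembly GRCm38.p6, Wdfy1 spans chr1:79702262-79776143, Wdfy2 chr14:62837661-62961509 and Wdfy3 chr5:101832953-102072215. Lmna is on chromosome 3, apart from all of them. The Wdfy1 gene model shares 126 bases at 1 end with that of its neighbour Mrpl44, which encodes a protein of the mitochondrial ribosome. Mrpl44 had geometric mean signals of 2685 units in the controls and 2416 units in the heterozygotes, a difference of -0.15 with limma's adjusted p = 0.662. The nearest measured gene on the other side, the potassium channel subunit gene Kcne4, was 882 kb away and differed by -0.53 with limma's adjusted p = 0.453.

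None of the 10 nearest measured genes on each side of Wdfy1 passed limma's test, nor any around Wdfy2 or Wdfy3, where 0.289% of all genes passed. At that share 0 is the likeliest count for any 20 genes, so it does not set these regions apart. The 20 neighbours of Wdfy1 had differences from -0.96 to 0.55 with a median of -0.09, against -0.08 over all 16627 genes. Where 15.2% of all genes had an unadjusted p under 0.05, 1 of these 20 did. That was the anion exchanger gene Slc4a3, 4143 kb away, with a difference of 0.43 and limma's adjusted p = 0.227. Irs1, the insulin receptor substrate and the sixth measured gene past Wdfy1, differed by 0.06 with a standard error of 0.20. The 20 neighbours of Wdfy2 had a median of -0.08 and 2 at an unadjusted p under 0.05. Its nearest measured genes were Ints6, a subunit of the Integrator complex, at -0.13 and the defensin gene Defb42 at -0.73, with limma's adjusted p = 0.793 and 0.570. The 20 neighbours of Wdfy3 had a median of -0.06 and 2 at an unadjusted p under 0.05. Its nearest were the lipid enzyme gene Cds1 at 0.18 and the GTPase regulator gene Arhgap24 at 0.12, with limma's adjusted p = 0.864 and 0.727. Mrpl44, Ints6, Cds1 and Arhgap24 had tested probe sets on both sides of 0.

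**Figure D4:**
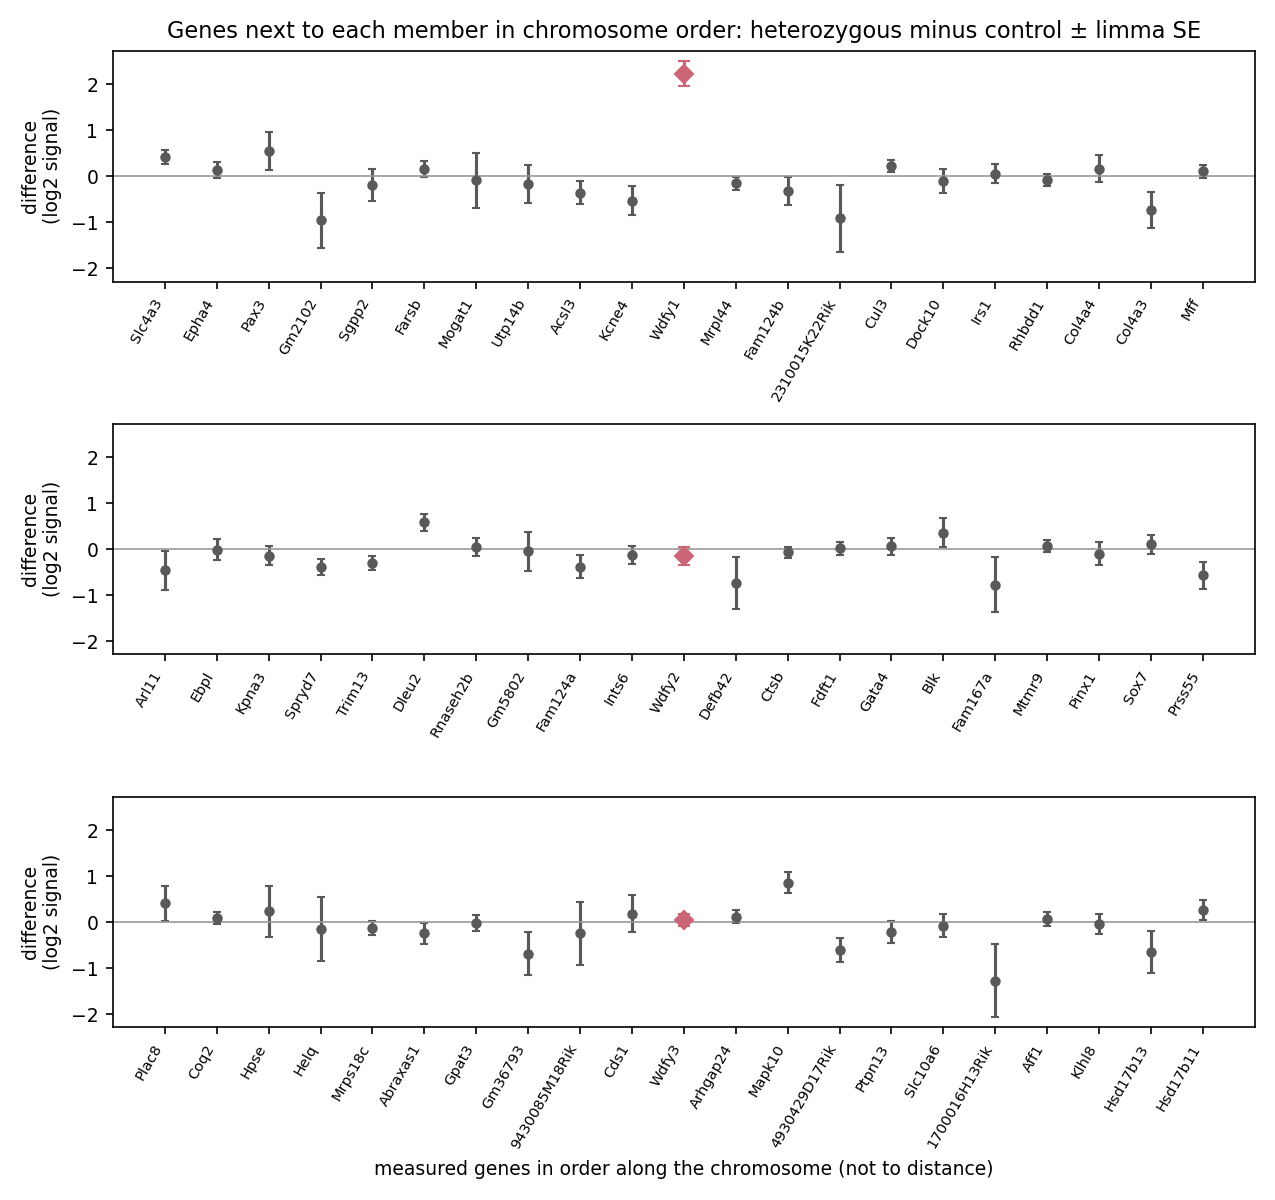
Difference between heterozygous and control mean log2 signal, with its limma standard error, for the 10 nearest measured genes on each side of Wdfy1, Wdfy2 and Wdfy3, 1 probe set per gene. Genes stand in chromosome order and not to distance, and the diamond is the Wdfy gene. Wdfy1 lies at 2.23 while its 20 neighbours lie between -0.96 and 0.55.

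No gene listed for the pathways of the Wdfy proteins passed the test. Of 152 measured genes in 7 lists, 0 passed limma's test over all probe sets, by the probe set with the highest mean or by any tested probe set. Of all genes, 0.463% passed by any probe set. At that share a count of 0 is not unusual for 152 genes, and still less so for a single list. The counts of 0 given below therefore do not set these lists apart from other genes. At an unadjusted p under 0.05 there were 13 higher and 5 lower, 11.8% of the 152, where 15.2% of all genes lay under that p. The median difference was 0.04, and on the deposited scale 60.5% of the 152 lay above 0, against 41.5% of all genes. Of the genes named below, Pikfyve, Tbc1d4, Tbc1d1, Akt2, Atg3, Atg5, Atg13, Sqstm1, Nbeal1 and Nbeal2 had tested probe sets on both sides of 0.

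For the route from Wdfy1 to interferon, 0 of 19 measured genes of TLR3 and TLR4 signalling through TRIF passed, and 0 had an unadjusted p under 0.05. The 3 with the smallest p were the interferon regulatory factor gene Irf7 at -0.48, the interferon gene Ifnb1 at -0.79 and the adaptor gene Myd88 at 0.26, with limma's adjusted p from 0.379 to 0.437. The receptor gene Tlr3 differed by -0.10 with a standard error of 0.28. Ticam1, which encodes TRIF, differed by 0.43 with a standard error of 0.42, in the single probe set that names it. The list median was 0.06.

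For the lipid that FYVE domains bind, 0 of 21 PI3P kinases and phosphatases passed, with 4 higher and 1 lower at an unadjusted p under 0.05 and a median of 0.05. Fig4, a phosphatase of the complex that makes and breaks PI(3,5)P2, went from a geometric mean of 950 to 1284 units, a difference of 0.43 with a standard error of 0.12 and limma's adjusted p = 0.152. It passed when a floor was set at a log2 of 6 (limma's adjusted p = 0.0278), and its adjusted p over the 24 fits run ranged from 0.0278 to 0.283. Uvrag and Nrbf2, which belong to PI3 kinase complexes of endosomes and autophagosomes, differed by 0.34 and 0.41 with limma's adjusted p = 0.249 and 0.271. The kinase gene Pik3c3 itself differed by 0.05 with a standard error of 0.13.

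Of 26 other FYVE domain genes 0 passed, with a median of 0.0032 and 2 higher and 1 lower at an unadjusted p under 0.05. These were Pikfyve, the kinase that turns PI3P into PI(3,5)P2, at 0.66, the endothelial exchange factor gene Fgd5 at 0.35 and Zfyve9, an anchor of SMAD proteins at endosomes, at -0.31. Their adjusted p in limma's test ran from 0.319 to 0.332, and the other tested probe sets of Pikfyve reached from -0.99 to 1.49. Eea1, the tether of early endosomes, differed by -0.01 with a standard error of 0.16.

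Of 30 early endosome traffic genes 0 passed, with a median of 0.07 and 4 higher and 1 lower at an unadjusted p under 0.05. The smallest p belonged to Ehd4, a membrane-remodelling ATPase of endosomes, at 0.45, to the retromer sorting nexin gene Snx2 at 0.40 and to the endosomal syntaxin gene Stx12 at 0.37, with limma's adjusted p from 0.213 to 0.230. Differences in this list ran from -0.51 to 0.45. Its summed signal, read after the other values were known, ran from 30823.1 to 33444.1 units in control and from 34377.4 to 38885.9 units in heterozygous hearts, without overlap on the deposited scale. It was the only one of the 7 lists whose sums did not overlap, and a sum of signals is weighted towards the brightest genes.

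For the route from Wdfy2 to Akt, 0 of 21 insulin and Akt signalling genes passed, with 1 higher and 1 lower at an unadjusted p under 0.05 and a median of 0.01. Tbc1d4, the Akt target that holds back the glucose transporter GLUT4, differed by -0.51, the regulatory subunit gene Pik3r1 by 0.33 and Tbc1d1 by -0.32, with limma's adjusted p from 0.296 to 0.406. Akt2 differed by -0.16 with a standard error of 0.17.

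For the autophagy that Wdfy3 serves, 0 of 28 genes passed and 1 was higher at an unadjusted p under 0.05, with a median of 0.11. The conjugating enzyme gene Atg3 differed by 0.28, the mitophagy receptor gene Bnip3 by 0.54 and the ULK complex gene Atg13 by 0.43, with limma's adjusted p from 0.286 to 0.431. Sqstm1, which encodes p62, differed by 0.11 with a standard error of 0.17, and Atg5, whose protein Wdfy3 binds, by 0.03 with a standard error of 0.18. Of 8 other genes with a BEACH domain 0 passed, with a median of -0.11 and 1 higher and 1 lower at an unadjusted p under 0.05. Nbeal2, needed for platelet granules, differed by 0.93, Nbeal1 by -0.44 and Wdr81 by -0.35, with limma's adjusted p from 0.252 to 0.345. Wdfy4, the remaining gene with the family's name and known from antigen presentation by dendritic cells, differed by -0.26 with a standard error of 0.44 and limma's adjusted p = 0.826.

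**Figure D5:**
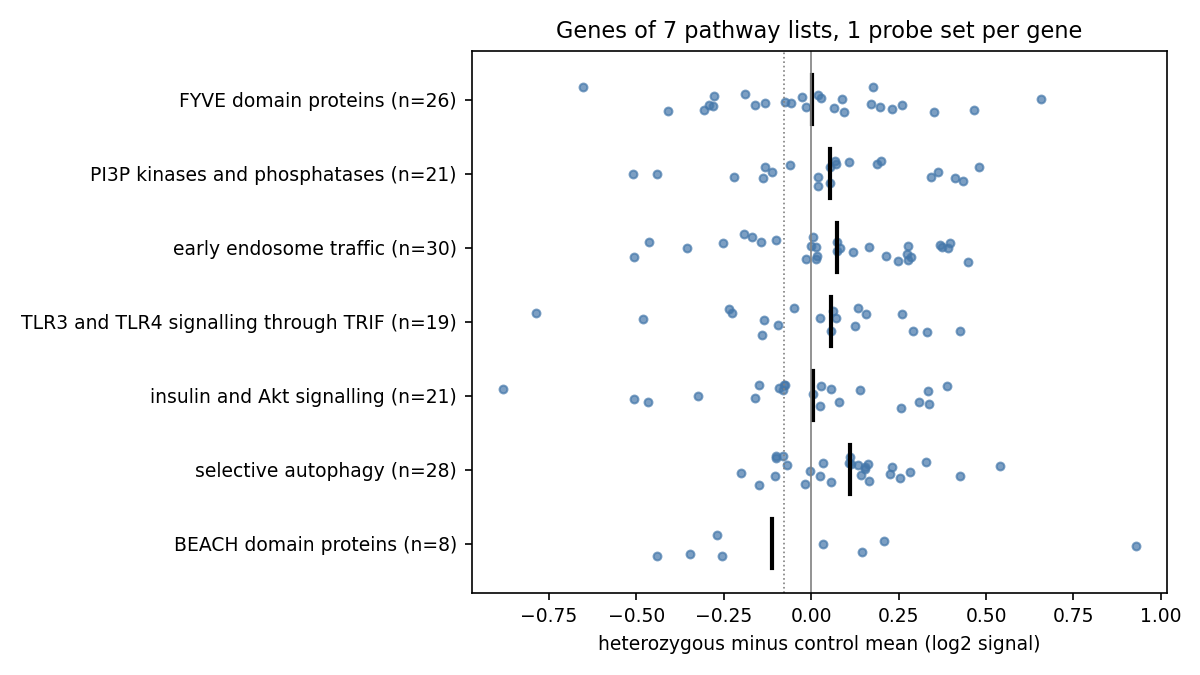
Difference between heterozygous and control mean log2 signal for the measured genes of 7 pathway lists (points, 1 probe set per gene) with each list's median (black bar). The dotted line is the median over all 16627 genes, -0.08, and the list medians lie between -0.11 and 0.11.

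The genes whose log2 signal followed Wdfy1 (1435588_at) most closely over all 15 arrays were Paip1, with a Pearson correlation of 0.90, Acta2 (0.88), Nol11 (0.86), Nudt4 (0.86) and 2310002L09Rik (0.86). These correlations include the step between the genotypes, and Acta2 is also one of the smooth muscle markers above. Within groups the nearest were Rfc2, Lmo3, Lgi2, Phf3 and Il11, with correlations of 0.82 to 0.83, and 0 of these 5 were among the 5 nearest over 15 arrays. All of them except Rfc2 were weak, with geometric means under the lowest array median of 56.7 units in both groups. The nearest to Wdfy2 over 15 arrays were Pdgfa (0.86), Agbl5 (0.85), Dcaf5 (0.84), Fes (0.81) and Map3k9 (0.78), and Pdgfa, Agbl5 and Dcaf5 were also the nearest within groups. The nearest to Wdfy3 (1428517_at) over 15 arrays were Ubxn2a (0.85), Galnt1 (0.83), Ubr3 (0.83), Rab1a (0.82) and Sh3bgrl (0.81), of which Ubxn2a and Sh3bgrl recurred within groups beside Gm20300, Zfp568 and Naa50. Within groups the nearest to Wdfy2 also included Slc35a2 and Sec22a. All these genes were picked as the highest of 16626 values each.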

How the data were processed

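The authors deposited an intensity for every probe set on every array, on a linear scale. The submitters' processing notes name GCRMA without a version, but the values are linear with 1 decimal and every array has the same trimmed mean of 250.0 units, which is not the form of GCRMA output. How the signals were summarised is not given in the sources used here.

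Signals were log2-transformed without a pseudocount. Of 45101 probe sets, 34958 had 1 gene symbol in the platform annotation, 932 several and 9211 none. Probe sets with a log2 signal above 4 on at least 7 of 15 arrays (38870, without 64 control probe sets) were fitted by genotype alone with limma 3.58.1 (R 4.3.3, moderated and two-sided). Its p-values were adjusted by Benjamini-Hochberg over all of them, and the fit was tested on simulated data. The Wdfy genes and the gene lists were chosen with earlier results of these data known. Genes were named by rule: in each list the 3 with the smallest p, the nearest measured gene on each side of each Wdfy gene, and the 5 most alike in pattern. Tlr3, Ticam1, Pik3c3, Eea1, Akt2, Sqstm1, Atg5, Irs1, Wdfy4, Slc4a3 and Mapk10 were named after their values were seen. Alternatives were other filters, scalings, priors, weights, a floor, a replicate block and leaving out each array. Group overlap under other scalings was added after seeing the data. The labels do not say whether mice shared litters, so a p-value reflects only how these samples vary, and the number of arrays limits the precision.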

Additional observations from a re-analysis of the deposited data

Results flagged for a closer look

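In the 22 groups of values checked for a single array far from the rest (11 probe sets in 2 genotypes), 1 stood apart, where chance gives about 1 in 20. Control mouse 4 measured 15.6 units in Wdfy1 probe set 1424749_at, while the other 7 controls measured 62.8 to 156.4 units. Its gap to the nearest control was 0.604 of the range of the log2 signals, against a limit of 0.526. The same mouse was at 68.9 units in 1435588_at and 74.3 units in 1437358_at, inside the range of the other controls. It was the lowest control in the remaining 2 Wdfy1 probe sets, at 4.4 units in 1447543_at and 6.7 units in 1453426_a_at.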

How the results depend on the processing

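As a description, since Wdfy1 was chosen on this contrast, both called Wdfy1 probe sets passed in all alternatives except the replicate block. Of the 249 refitted Wdfy differences, 248 moved by less than the larger of both groups' SDs. The floor at a log2 of 6 brought 1453426_a_at to 0.13 and 1447433_at to 0.14, the latter a shift within that larger SD but above its residual SD of 1.01. The count of all called probe sets was 98, and it was 65 after centring on the median (51 higher, 14 lower, against 35 and 63 as deposited), 65 after quantile normalization (37 and 28), 192 with the filter at a log2 of 6, 287 with the floor and 312 with the trended and robust prior. Leaving out 1 array gave 17 (without control mouse 7) to 150 (without heterozygous mouse 7). Counts of 52 or fewer came without control mice 1 to 5 and 7 and heterozygous mice 1 and 4, and 55 and 54 without control mouse 6 and heterozygous mouse 6. With the replicate number as a block, 1 probe set passed over the whole array and 0 of the 11 Wdfy probe sets. Same-numbered mice did not deviate together across tested probe sets (correlations from -0.06 to 0.06). The labels give them only a shared number, and these correlations cannot tell whether they shared a litter or handling. The pathway lists gained 1 called gene with the floor (Fig4), and the neighbours 1 with the trended and robust prior, Mapk10, the second measured gene past Wdfy3, at limma's adjusted p = 0.0390 (range over the fits 0.0390 to 0.210), whose tested probe sets ran from -1.29 to 0.86. Probe set 1424749_at also passed with the filter at 6, the floor and that prior. The cause of these changes was not tested.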
